A study of Mus musculus with 96 samples.

Results

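WDR5 and the subunits of the COMPASS H3K4 methyltransferases were examined in mouse embryonic stem cells (ESCs) as a set of 10 genes. The genes were Wdr5, Rbbp5, Ash2l and Dpy30, the MLL-type enzymes Kmt2a, Kmt2b, Kmt2c and Kmt2d, and the SET1-type enzymes Setd1a and Setd1b. They were selected by symbol and found in the count tables by their Ensembl identifiers, with older symbols counted (the mm9 annotation lists Kmt2a as Mll1, Kmt2b as Wbp7, Kmt2c as Mll3 and Kmt2d as Mll2). They made up 10 of the 37620 genes listed, and all 10 passed the filter on low counts in each of the 7 comparisons.

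COMPASS complexes add methyl groups to H3K4, a mark of active promoters and enhancers. Each complex carries a single catalytic SET-domain protein, and WDR5, RBBP5, ASH2L and DPY30 form the core that all of them share. KMT2A and KMT2B act at promoters of developmental genes, KMT2C and KMT2D are known for monomethylation at enhancers, and SETD1A and SETD1B place much of the H3K4me3 at active promoters. RYBP, the protein that the study altered, is a subunit of the non-canonical Polycomb complex PRC1, which ubiquitinates histone H2A through RING1B.

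RNA-seq was performed in ESCs after loss, knockdown, induction or mutation of RYBP or its partners, with 2 libraries per group, and ChIP-seq peak lists were deposited for H3K4me3, H3K27ac, WDR5, STAT3 and RING1B. RYBP was depleted in the Rybp-floxed line R7.15 (RYBPfl/fl Rosa26::CreERT2) with 5 µM 4-OHT for 4 days (Rybp-/-), and the same cells without it served as control (Rybp+/+). In the R1 line, shRybp and shWdr5 cells were each compared with the same empty-vector libraries (shEV), and a TF-AA mutation was compared with WT ESC. The rTRS line carries a DOX-induced Rybp_Stat3 integration and was compared with (DOX) and without (NTC) doxycycline. The J1 line Tet on.RYBP received vehicle or DOX. Finally, 4-OHT-treated R7.15 cells overexpressing WT RYBP (WT.RYBP) were compared with cells carrying RYBP.21aa deletion (RYBP phase disruption). In this last pair both groups carry the floxed allele and CreERT2 and both received 4-OHT. The ChIP-seq peak lists used here are from R7.15 cells (Rybp+/+ and Rybp-/-), R1 cells with shEV or shStat3, and R1 cells with the DOX-induced Rybp_Stat3 integration (Tet.Rybp.Stat3, DOX- and DOX+). The series also has ChIP libraries, WDR5 among them, of WT ESC, TF-AA mutation, WT.RYBP and RYBP phase disruption, for which no peak list was used. The residue changes of the TF-AA mutation, and whether a line is a single clone, are not given in the sources used here.

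Gene counts per library ranged from 14512857 to 81049618. The targeted genes moved with the labels in 4 tables: Rybp fell to 22.6% of control in the knockout and to 42.0% in the knockdown, Wdr5 fell to 17.1% in its knockdown, and Rybp rose to 376.9% with DOX in the J1 line. In the rTRS table Rybp did not rise with the label. It had 113.4 and 110.5 CPM (counts scaled to TMM-adjusted library totals) in NTC and 101.8 and 99.8 CPM in the libraries labelled DOX. That difference did not pass the test (log2 fold change -0.15), while Stat3 rose from 159 and 172 to 191 and 189 CPM (edgeR adjusted p = 0.026). In RYBP phase disruption Rybp was high in both groups, with 749 and 753.5 CPM in WT.RYBP and 662 and 626 CPM in the deletion, where it passed the test as lower (log2 fold change -0.22, edgeR adjusted p = 6.8e-05), as did Stat3 (-0.27, edgeR adjusted p = 0.00016). With the TF-AA mutation it did not pass the test (log2 fold change -0.19, edgeR adjusted p = 0.096). Directions drawn from the rTRS table refer to the libraries labelled DOX, of which the second was matched by treatment and replicate number alone, since its column is named S5 in place of rTRS. Without it 6 members were called, as with it. All 6 ESC markers (Pou5f1, Sox2, Nanog, Zfp42, Esrrb and Klf4) had counts in every library. Of the 5 fibroblast markers, Col1a1, Col1a2 and Thy1 had counts in all 28 libraries as tabulated, while Col3a1 was at 0 in 12 and Postn in 15.

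The members lie on 8 chromosomes (mm9, GENCODE vM1 annotation). Wdr5 (ENSMUSG00000026917) is at chr2:27370677-27392055 on the plus strand, Rbbp5 (ENSMUSG00000026439) at chr1:134373944-134402242 on the plus strand, Ash2l (ENSMUSG00000031575) at chr8:26926663-26958166 on the minus strand, and Dpy30 (ENSMUSG00000024067) at chr17:74698814-74723284 on the minus strand. Kmt2a (ENSMUSG00000002028) is at chr9:44611438-44689379, Kmt2b (ENSMUSG00000006307) at chr7:31353877-31373745, Kmt2c (ENSMUSG00000038056) at chr5:24777612-25004601 and Kmt2d (ENSMUSG00000048154) at chr15:98662100-98701614, all on the minus strand. Setd1a (ENSMUSG00000042308) is at chr7:134920184-134943636 and Setd1b (ENSMUSG00000038384) at chr5:123592202-123617444, both on the plus strand. Setd1a shares 3523 of its 6795 exon bases with Hsd3b7 on the same strand, so its counts are uncertain. Setd1b lies within the opposite-strand lincRNA Gm17627 without sharing an exon base with it.

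Promoter sequences are shown for 4 members whose expression or peaks carry the results that follow: Wdr5 itself, Kmt2a with the widest WDR5 peak of the set, Kmt2d with a STAT motif, and Setd1b with the widest H3K4me3 peak of the set. They are from the mm9 genome, read 5′ to 3′ on the strand of the gene, and hold no annotated exon base. Capitals mark the GC box (GGGCGG, either strand) and, in Kmt2d, also the STAT motif (TTCNNNGAA, which reads the same on both strands). The Wdr5 stretch is the 150 bases before the start of transcription (chr2:27370527-27370676), the Kmt2a stretch is the 121 bases around the summit of the Rybp+/+ WDR5 peak (chr9:44689504-44689624), and the Kmt2d (chr15:98701615-98701764) and Setd1b (chr5:123592052-123592201) stretches are again the 150 bases before the start.
Wdr5: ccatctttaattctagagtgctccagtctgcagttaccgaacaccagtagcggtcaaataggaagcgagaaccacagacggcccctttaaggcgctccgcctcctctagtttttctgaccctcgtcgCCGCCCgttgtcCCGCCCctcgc
Kmt2a: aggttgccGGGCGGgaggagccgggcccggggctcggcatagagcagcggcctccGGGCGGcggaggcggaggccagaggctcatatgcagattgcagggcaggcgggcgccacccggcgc
Kmt2d: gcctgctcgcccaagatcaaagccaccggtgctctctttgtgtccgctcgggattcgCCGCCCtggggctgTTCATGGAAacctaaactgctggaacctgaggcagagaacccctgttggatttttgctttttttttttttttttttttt
Setd1b: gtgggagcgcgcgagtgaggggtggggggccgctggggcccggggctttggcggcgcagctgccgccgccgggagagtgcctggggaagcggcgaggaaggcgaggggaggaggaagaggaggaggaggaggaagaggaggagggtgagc

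The Wdr5 stretch holds 2 GC boxes, whose last bases lie 18 and 6 bases before the start of transcription. In Kmt2d the STAT match ends 71 bases before the start, at chr15:98701685-98701693. The Setd1b stretch holds none of the motifs searched, and this says only that these letters are absent from this window. RefSeq promoter windows of 300 bases (GRCm38.p6) were matched for 7 of the 10 members, with 10 promoters in all. Their median G+C content was 67.3%, against 52.7% over 32851 RefSeq promoters, and their median number of CpG sites was 32, against 7. The GC box was found in promoters of 5 members (35.7% of all promoters hold it), CCAAT in a promoter of Dpy30 (37.4% of all), and TTCNNNGAA in Kmt2d (8.30% of all). CACGTG (7.15% of all), CCGGAAG (8.86%), TATAAA (13.6%) and the NRF1 and YY1 motifs (0.971% and 0.633%) were not found in the member promoters.

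Per kilobase of exon, the core subunits were the most abundant members. In Rybp+/+ cells Dpy30 had a mean level of 106.8 RPKM (106 and 108 in the 2 libraries), Ash2l 89.2 RPKM (91.2 and 87.1) and Wdr5 69.3 RPKM (68.1 and 70.4). Rbbp5 followed with 29.3 RPKM and Kmt2b with 18.3 RPKM, ahead of the other enzymes. Setd1a had 8.77 RPKM, Kmt2a 6.45 RPKM, Kmt2d 5.14 RPKM, Kmt2c 4.23 RPKM and Setd1b 2.03 RPKM. No neighbours in this order overlapped between libraries.

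Dpy30, Ash2l and Wdr5 held ranks 1 to 3 in the control groups of the other tables as well. Rbbp5 was at rank 4 except in both shEV groups, where Kmt2b lay above it (51.4 against 43.3 RPKM and 48.4 against 40.7 RPKM). Setd1b moved most in rank, from 6 to 10, with mean levels from 1.71 RPKM in NTC cells of the rTRS line to 16.7 RPKM in shEV cells. Kmt2c was at rank 9 or 10 throughout. These levels were compared by rank because each table was prepared on its own.

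**Figure D1:**
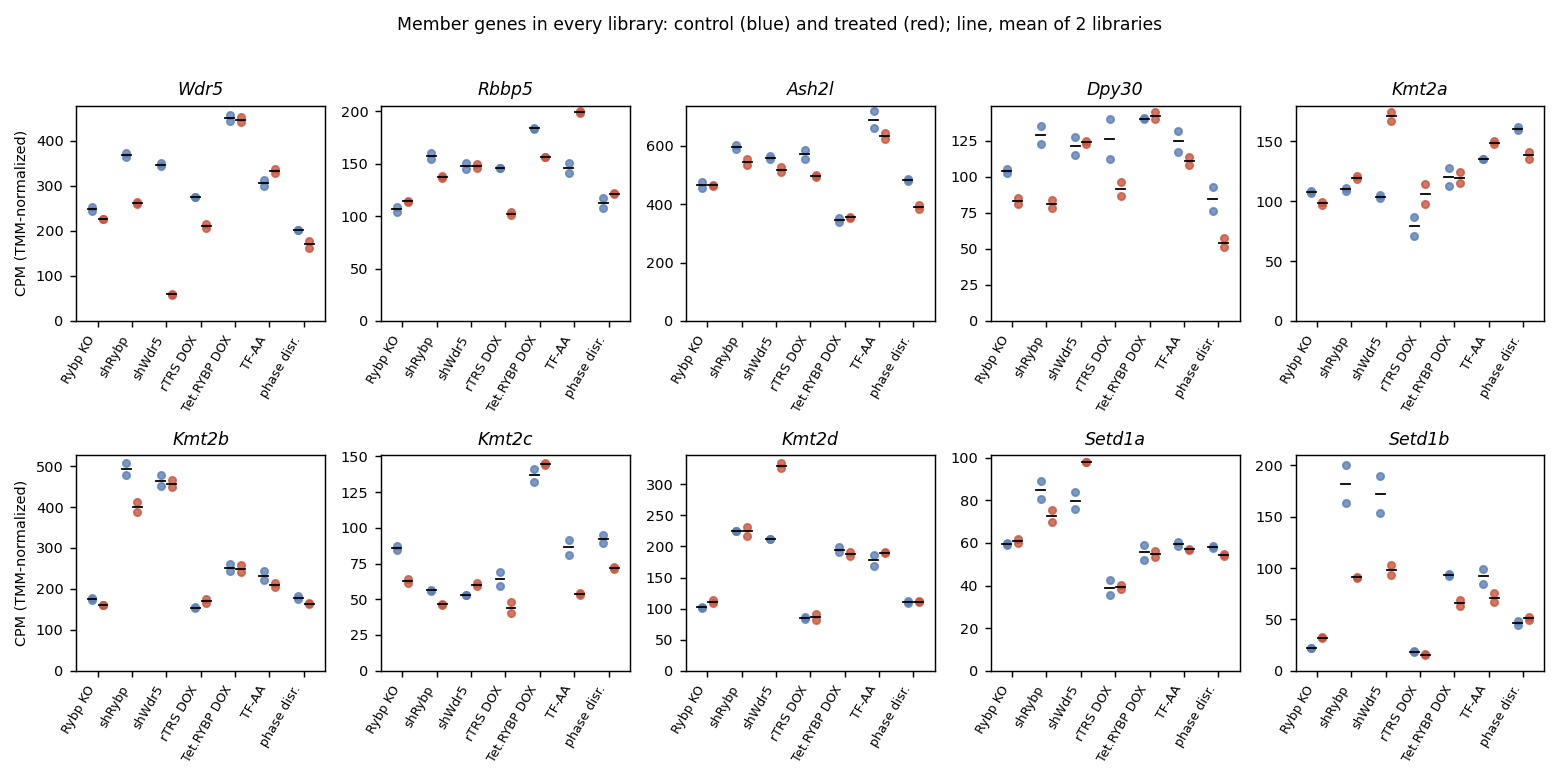
CPM of each member gene (vertical axis, linear from 0) in every library of the 7 tables, with control libraries in blue, treated libraries in red and a line at the mean of the 2 libraries. Wdr5 fell furthest in its own knockdown, and Setd1b differed between the control groups from 18.2 CPM in an NTC library to 200.4 CPM in a shEV library.

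All 4 core subunits passed the test as lower in the Rybp knockdown and in the libraries labelled DOX of the rTRS line, where 26.0% and 20.4% of all genes were lower. The calls for Ash2l in these were lost without the second shRybp library (edgeR adjusted p = 0.17) and without the first NTC library (0.095). In RYBP phase disruption 3 of 4 (Wdr5, Ash2l and Dpy30) were lower, against 17.0% of all genes. The knockout gave 2 lower (Wdr5 and Dpy30) and 1 higher (Rbbp5). The WDR5 knockdown gave 2 lower (Ash2l and the targeted Wdr5), against 31.5% of all genes. RYBP induction gave 1 lower (Rbbp5), against 2.39%, and the TF-AA mutation 1 higher (Rbbp5), against 14.4%. In the knockout, 8 of the 10 members differed between Rybp-/- and Rybp+/+ cells at an adjusted p under 0.05 (edgeR's quasi-likelihood test, p-values adjusted after Benjamini and Hochberg over 16955 genes), where 45.5% of all genes tested did. Of these, 3 were higher and 5 lower, against 22.8% and 22.7% of all genes. In the Rybp knockdown 8 of 10 were called, all 8 lower, where 52.7% of all genes were called, 26.8% higher and 26.0% lower. With all libraries, both shares of members called exceed the background, but the changes were small. The knockout share was not stable when a library was left out, as given below. The median log2 fold change over the members was -0.06 in the knockout and -0.26 in the knockdown, where the median gene had 0.00 and 0.02, and the median size of the change was 0.13 and 0.26, against 0.23 and 0.34 over all genes tested.

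Knockdown of WDR5 changed 7 members, 4 higher and 3 lower including Wdr5 itself, against 63.0% of all genes called (31.5% in each direction), so the count is close to the background. In the libraries labelled DOX of the rTRS line 6 members were called, 1 higher and 5 lower, against 43.4% of all genes (23.0% higher and 20.4% lower). Induction of RYBP in the J1 line changed 2 members, both lower, against 6.02% of all genes (3.63% higher and 2.39% lower). With the TF-AA mutation 3 members were called, 1 higher and 2 lower, against 30.5% of all genes (14.4% higher and 16.1% lower), which is the background share. In RYBP phase disruption 5 members were called, all lower, against 33.0% of all genes (16.1% higher and 17.0% lower). The members' median log2 fold change was 0.01, -0.23, -0.01, -0.09 and -0.17 in these comparisons in turn, and that of all genes tested lay between -0.01 and 0.01. Because the libraries are bulk RNA, fewer cells of a type and less RNA per cell cannot be told apart.

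The knockout count rests on several small changes. Without the second Rybp-/- library 4 members were called, since Rbbp5 (edgeR adjusted p = 0.18), Kmt2a (0.13), Kmt2b (0.055) and Kmt2d (0.16) were lost. The calls for Wdr5, Dpy30, Kmt2c and Setd1b held when each library was left out. Between the knockout and the Rybp knockdown, 4 members (Rbbp5, Kmt2a, Setd1a and Setd1b) had groups that did not overlap in either and differed in opposite directions, where 21.4% of the 15747 genes tested in both tables did.

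**Figure D2:**
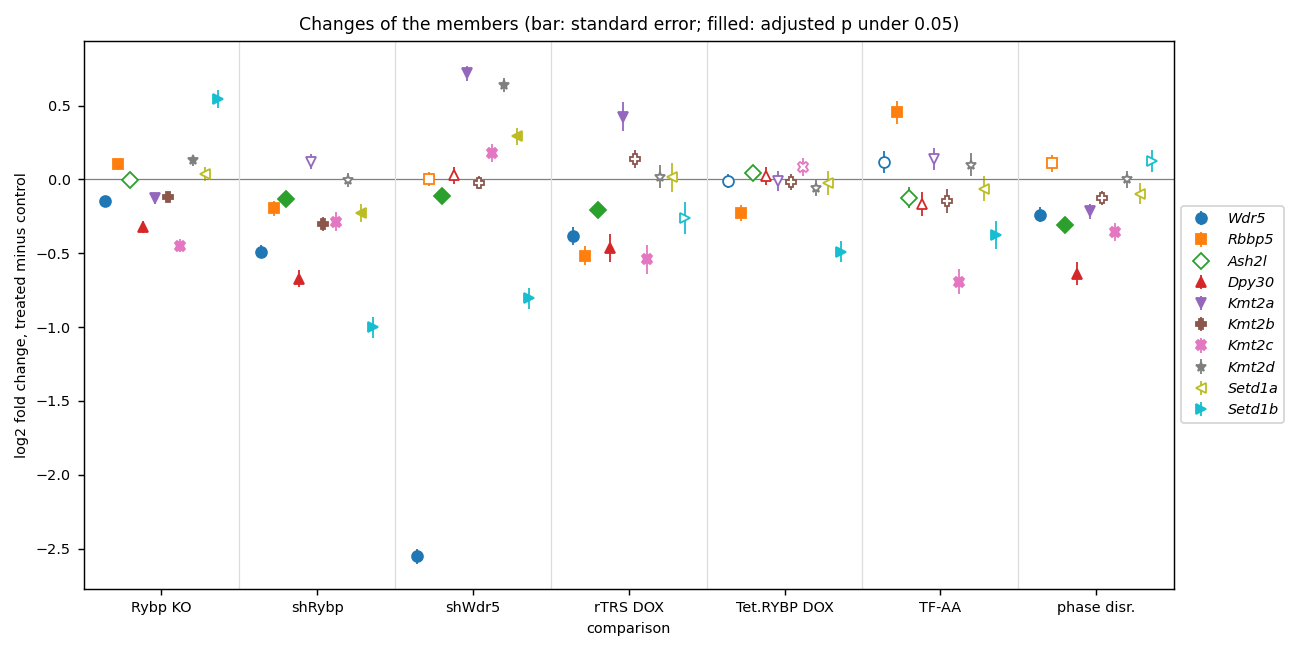
Log2 fold change (treated minus control) of each member in the 7 comparisons, with bars for the standard error and filled symbols for an adjusted p under 0.05. The Wdr5 knockdown point at -2.55 is the targeted gene, and Setd1b spans from 0.54 in the knockout to -1.001 in the Rybp knockdown.

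Among the core subunits, Wdr5, the WD40 protein that bridges the catalytic subunit and the core, was lower in 5 of the 7 comparisons. In the knockout it had 245 and 253 CPM in Rybp+/+ and 225 and 226 CPM in Rybp-/-. The groups did not overlap, and the log2 fold change was -0.14 (SE 0.033, edgeR adjusted p = 0.00050). In the Rybp knockdown the difference was larger, with 372 and 364 CPM in shEV and 265 and 259.7 CPM in shRybp, a log2 fold change of -0.49 (SE 0.044, edgeR adjusted p = 2.7e-08). Both knockdown libraries lay below both controls.

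In the WDR5 knockdown Wdr5 went from 349.8 and 343 CPM to 60.05 and 58.2 CPM, a log2 fold change of -2.55 (SE 0.051). The shEV libraries are the same as in the Rybp knockdown, but their levels differ slightly between the tables, which hold 19731613 to 21500931 gene counts per library here and 38961268 to 52303725 there. In the rTRS line Wdr5 had 276 and 274 CPM in NTC and 206 and 216 CPM in the libraries labelled DOX (log2 fold change -0.38, SE 0.059, edgeR adjusted p = 0.00020). In RYBP phase disruption it had 201 and 201 CPM in WT.RYBP and 162 and 178 CPM in the deletion (log2 fold change -0.24, SE 0.052, edgeR adjusted p = 0.00042). With RYBP induced in the J1 line, Wdr5 had 443 and 458 CPM in vehicle and 452 and 442 CPM in DOX, and the groups overlapped (log2 fold change -0.01, edgeR adjusted p = 0.93). The TF-AA mutation gave 313 and 300.5 CPM in WT ESC and 338 and 329 CPM in the mutant, a difference that did not pass the test (log2 fold change 0.12, edgeR adjusted p = 0.24).

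Dpy30, the small subunit that binds ASH2L, was lower in 4 comparisons. Its knockout values were 105 and 103 CPM in Rybp+/+ and 85.7 and 80.9 CPM in Rybp-/- (log2 fold change -0.32, SE 0.041, edgeR adjusted p = 6.5e-08). The knockdown gave 135 and 123 CPM in shEV and 83.7 and 78.1 CPM in shRybp (log2 fold change -0.67, SE 0.059, edgeR adjusted p = 2.1e-08). Groups were separate in both, with each RYBP-deficient library lower.

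In the rTRS line Dpy30 had 140.0 and 112 CPM in NTC and 96.5 and 86.5 CPM in the libraries labelled DOX (log2 fold change -0.46, SE 0.096, edgeR adjusted p = 0.0017). RYBP phase disruption gave 76.1 and 93.0 CPM in WT.RYBP and 57.3 and 51.4 CPM in the deletion (log2 fold change -0.64, SE 0.078, edgeR adjusted p = 6.0e-08). Both differences exceeded the gap between the 2 controls. In the WDR5 knockdown Dpy30 had 128 and 116 CPM in shEV and 123 and 125 CPM in shWdr5, which overlapped (log2 fold change 0.03, edgeR adjusted p = 0.68). It also missed the threshold with induced RYBP (0.02, edgeR adjusted p = 0.89) and with the TF-AA mutation (-0.17, edgeR adjusted p = 0.13).

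Ash2l, the subunit that with RBBP5 activates the SET domain, was lower in 4 comparisons, each by a log2 fold change of at most 0.31 in size. RYBP phase disruption gave the clearest difference, with 485 and 479.7 CPM in WT.RYBP and 397 and 384 CPM in the deletion (log2 fold change -0.31, SE 0.043, edgeR adjusted p = 7.6e-07). Ash2l was also lower in the libraries labelled DOX (log2 fold change -0.21, edgeR adjusted p = 0.0091), in the Rybp knockdown (-0.13, edgeR adjusted p = 0.012) and in the WDR5 knockdown (-0.11, edgeR adjusted p = 0.024). The losses of the calls in the rTRS line and the Rybp knockdown are given above. The call in the WDR5 knockdown was lost without the first shEV (0.061), the first shWdr5 (0.084) or the second shWdr5 library (0.28), and with DESeq2 (0.076). In the knockout Ash2l had 477 and 456 CPM in Rybp+/+ and 466 and 463 CPM in Rybp-/-, so the groups overlapped (log2 fold change -0.01, edgeR adjusted p = 0.91).

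Rbbp5, the core subunit that contacts the catalytic domain, moved in both directions. With the TF-AA mutation it rose from 141 and 151 CPM in WT ESC to 199 and 200.5 CPM (log2 fold change 0.45, SE 0.078, edgeR adjusted p = 8.2e-05). In the rTRS line it fell from 146 and 146 CPM in NTC to 101 and 103 CPM in the libraries labelled DOX (log2 fold change -0.52, SE 0.063, edgeR adjusted p = 2.9e-05). The groups did not overlap in either comparison.

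Rbbp5 fell in the Rybp knockdown from 155 and 160.0 CPM to 136 and 138 CPM (log2 fold change -0.20, SE 0.049, edgeR adjusted p = 0.0024). With RYBP induced in the J1 line it had 183 and 184 CPM in vehicle and 157 and 157 CPM in DOX (log2 fold change -0.23, SE 0.056, edgeR adjusted p = 0.010). Although all 4 libraries were tightly placed, that call was lost without the first (edgeR adjusted p = 0.26) or the second DOX library (0.25). In the knockout Rbbp5 had 104 and 109 CPM in Rybp+/+ and 114 and 115 CPM in Rybp-/- (log2 fold change 0.10, SE 0.038, edgeR adjusted p = 0.029). This small difference was lost without the first Rybp+/+ (0.22), the first Rybp-/- (0.14) or the second Rybp-/- library (0.18), and without the filter on low counts (0.080). It did not pass the test in the WDR5 knockdown (log2 fold change 0.00, edgeR adjusted p = 0.96) or in phase disruption (0.11, edgeR adjusted p = 0.14).

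Of the MLL-type enzymes, Kmt2c, the enhancer-associated methyltransferase, changed most often, with 5 comparisons lower and 1 higher. The TF-AA mutation gave the largest difference, from 81.3 and 91.3 CPM in WT ESC to 52.7 and 54.2 CPM (log2 fold change -0.69, SE 0.088, edgeR adjusted p = 1.5e-06). In the knockout Kmt2c fell from 87.2 and 84.4 CPM to 64.0 and 61.7 CPM (log2 fold change -0.45, SE 0.043, edgeR adjusted p = 2.0e-10). In both, the treated libraries lay well below the controls.

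Kmt2c also fell in the libraries labelled DOX, from 59.2 and 69.1 CPM to 40.4 and 47.8 CPM (log2 fold change -0.54, SE 0.099, edgeR adjusted p = 0.00070). RYBP phase disruption lowered it from 94.9 and 89.3 CPM to 71.5 and 72.6 CPM (log2 fold change -0.35, SE 0.063, edgeR adjusted p = 3.4e-05). It fell in the Rybp knockdown from 56.8 and 56.1 CPM to 46.1 and 46.5 CPM (log2 fold change -0.28, SE 0.061, edgeR adjusted p = 0.00070). The groups did not overlap in any of these. In the WDR5 knockdown the direction was opposite, with 53.1 and 52.9 CPM in shEV and 61.3 and 58.9 CPM in shWdr5 (log2 fold change 0.18, SE 0.061, edgeR adjusted p = 0.013). That call was lost without the first shWdr5 library (0.11) and with DESeq2 (0.066). Induced RYBP gave a log2 fold change of 0.08 for Kmt2c (edgeR adjusted p = 0.51).

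Kmt2d, the closest relative of Kmt2c, did not follow it. It rose in the WDR5 knockdown from 212 and 211 CPM to 334 and 326 CPM (log2 fold change 0.64, SE 0.045, edgeR adjusted p = 1.8e-11). In the knockout it went from 102 and 101 CPM to 109 and 113 CPM (log2 fold change 0.13, SE 0.038, edgeR adjusted p = 0.0064). The groups did not overlap in either, and in the WDR5 knockdown the gap between them was far wider than that between libraries of a group. The knockout call was lost without the second Rybp-/- library (0.16). The other 5 comparisons gave log2 fold changes for Kmt2d between -0.06 and 0.10, none past the threshold.

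Kmt2a, the founding mammalian Trithorax homolog, rose in the WDR5 knockdown from 105 and 102 CPM to 175 and 167 CPM (log2 fold change 0.72, SE 0.051, edgeR adjusted p = 2.1e-11). It also rose in the libraries labelled DOX, from 71.0 and 87.0 CPM to 98.0 and 114 CPM (log2 fold change 0.43, SE 0.098, edgeR adjusted p = 0.0035). RYBP phase disruption lowered it from 162 and 159 CPM to 141 and 135 CPM (log2 fold change -0.22, SE 0.052, edgeR adjusted p = 0.0014). The groups were separate in these 3 comparisons, although the 2 NTC libraries were themselves apart. In the knockout Kmt2a fell from 107 and 108 CPM to 99.7 and 97.1 CPM (log2 fold change -0.13, SE 0.039, edgeR adjusted p = 0.0065). That call was lost without the second Rybp-/- library (0.13). The Rybp knockdown gave 111 and 108 CPM in shEV and 118 and 121 CPM in shRybp, just short of the threshold (log2 fold change 0.12, SE 0.051, edgeR adjusted p = 0.054).

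Kmt2b, which methylates H3K4 at bivalent promoters in ESCs, was lower in 2 comparisons. The Rybp knockdown lowered it from 477 and 508 CPM to 388 and 411 CPM (log2 fold change -0.30, SE 0.046, edgeR adjusted p = 2.1e-05). In the knockout it went from 177 and 174 CPM to 161 and 162 CPM (log2 fold change -0.12, SE 0.034, edgeR adjusted p = 0.0045). The second call was lost without the first (0.068) or the second Rybp-/- library (0.055). In RYBP phase disruption Kmt2b had 174 and 183 CPM in WT.RYBP and 163 and 164 CPM in the deletion, which did not pass (log2 fold change -0.13, edgeR adjusted p = 0.054) but did with relative log expression size factors (0.047).

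Setd1b moved in both directions, and its decreases in the R1 knockdowns were the largest of any member other than Wdr5 in its own knockdown. The Rybp knockdown lowered it from 163 and 200.4 CPM to 91.6 and 90.0 CPM (log2 fold change -1.001, SE 0.070, edgeR adjusted p = 1.0e-09). Measured against the same shEV libraries, the WDR5 knockdown gave 154 and 189.8 CPM in shEV and 93.2 and 103 CPM in shWdr5 (log2 fold change -0.81, SE 0.072, edgeR adjusted p = 1.2e-09). The 2 shEV libraries differed from each other, and both lay above every knockdown library.

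Setd1b rose in the knockout, from 21.6 and 22.4 CPM in Rybp+/+ to 31.8 and 32.5 CPM in Rybp-/- (log2 fold change 0.54, SE 0.062, edgeR adjusted p = 6.7e-09). With RYBP induced in the J1 line Setd1b fell from 93.7 and 91.8 CPM to 68.7 and 63.3 CPM (log2 fold change -0.49, SE 0.071, edgeR adjusted p = 1.4e-05). The TF-AA mutation gave 99.4 and 84.8 CPM in WT ESC and 75.2 and 66.7 CPM in the mutant (log2 fold change -0.38, SE 0.092, edgeR adjusted p = 0.0027), a call lost without the second mutant library (0.11). In the rTRS line (-0.26, edgeR adjusted p = 0.064) and in phase disruption (0.12, edgeR adjusted p = 0.22) Setd1b did not pass the test.

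Setd1a, its paralog, changed less. It rose in the WDR5 knockdown from 75.8 and 84.1 CPM to 98.0 and 97.8 CPM (log2 fold change 0.29, SE 0.058, edgeR adjusted p = 0.00013). In the Rybp knockdown it fell from 80.8 and 89.2 CPM to 69.8 and 75.3 CPM (log2 fold change -0.23, SE 0.062, edgeR adjusted p = 0.0043), which was lost without the first shRybp library (0.076). The other 5 comparisons gave log2 fold changes for Setd1a between -0.10 and 0.04, none past the threshold, and the bases shared with Hsd3b7 apply to all of these values.

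Markers of other cell types moved in several of the same comparisons. Of the 6 ESC markers, 5 were lower in the rTRS line, and their summed level went from between 3706 and 3858 CPM in NTC to between 2193 and 2307 CPM in the libraries labelled DOX. In the Rybp knockdown 3 were lower and 2 higher, with sums between 5631 and 5874 CPM in shEV and between 4826 and 4837 CPM in shRybp. The WDR5 knockdown gave 4 lower and 2 higher, with sums from between 5299 and 5526 CPM to between 4523 and 4565 CPM. The knockout went the other way, with 4 higher and 1 lower and sums from between 2975 and 3052 CPM to between 3329.8 and 3338 CPM. With the TF-AA mutation 2 were higher, with sums from between 3933 and 4082 CPM to between 4200.2 and 4272 CPM. Phase disruption gave 1 higher and 2 lower, with sums from between 2182 and 2234 CPM to between 2255 and 2274 CPM, while with RYBP induction none passed edgeR's quasi-likelihood test and 3 had an unadjusted p under 0.05.

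The 5 trophectoderm markers (Cdx2, Elf5, Gata3, Tfap2c and Krt7) had higher calls in all 7 comparisons and no lower call. Tfap2c had 694 to 8749 counts per library, while Cdx2, Elf5, Gata3 and Krt7 were at 0 in 2, 6, 1 and 1 libraries. Their sums therefore do not weigh the 5 markers equally. All 5 were higher in the knockout, with sums from between 101.8 and 102.5 CPM to between 120.2 and 123.6 CPM, and 4 in the Rybp knockdown, from between 77.3 and 84.7 CPM to between 141 and 144 CPM. The WDR5 knockdown gave 3 higher, with sums between 73.2 and 80.1 CPM in shEV and between 223 and 232 CPM in shWdr5. The rTRS line also gave 3, from between 119.7 and 126.1 CPM to between 166 and 169 CPM in the libraries labelled DOX, and phase disruption 3, from between 126.2 and 126.5 CPM to between 207 and 214 CPM. The TF-AA mutation gave 2 of 2 tested and RYBP induction 1 of 2.

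The 5 fibroblast markers (Col1a1, Col1a2, Col3a1, Thy1 and Postn) were all higher in the knockout, with sums between 56.1 and 56.8 CPM in Rybp+/+ and between 113 and 119.2 CPM in Rybp-/-. In RYBP phase disruption 3 of the 5 were lower, with sums between 420.4 and 427 CPM in WT.RYBP and between 341 and 364 CPM in the deletion. All 3 that were tested were higher in the Rybp knockdown and with the TF-AA mutation. Of 3 tested, 1 was higher and 1 lower in the WDR5 knockdown and likewise in the rTRS line, and with RYBP induction neither of the 2 tested passed edgeR's test, while 1 had an unadjusted p under 0.05. The 5 primitive endoderm markers (Gata4, Gata6, Sox17, Sox7 and Dab2) were low, at a sum of at most 33.9 CPM in any library, but shifted. Knockdown of Rybp gave 4 higher and 1 lower, with sums from between 15.8 and 18.9 CPM to between 27.7 and 28.6 CPM, and in the WDR5 knockdown 3 were higher and 1 lower, from between 15.4 and 18.1 CPM to between 33.4 and 33.9 CPM. The rTRS line gave 1 higher and 1 lower, with sums from between 6.87 and 8.57 CPM to between 19.5 and 20.4 CPM, and the knockout 2 higher, from between 6.98 and 7.75 CPM to between 11.6 and 12.6 CPM. The TF-AA mutation gave 2 higher and phase disruption 1. With RYBP induction none of the 3 tested passed edgeR's test. Their sums went the other way there, from between 6.03 and 6.42 CPM in vehicle to between 2.98 and 4.07 CPM in DOX. The part of these shifts in the members' changes was not tested.

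**Figure D3:**
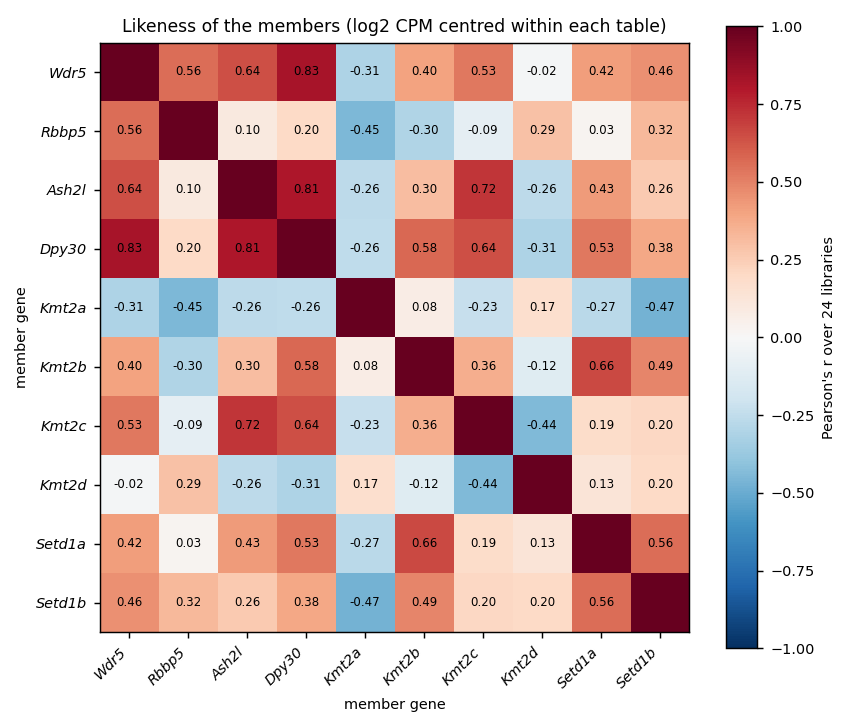
Pearson's r between the members over 24 libraries of 6 tables, from log2 CPM centred within each table, with colour from -1 to 1. Wdr5 and Dpy30 (0.83) and Ash2l and Dpy30 (0.81) were the most alike, and Kmt2a and Setd1b (-0.47) the least.

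The members' patterns were compared over the 24 libraries of the 6 tables other than the WDR5 knockdown, as a description, since libraries of a table share line, batch and treatment. Wdr5 was most like Dpy30 among the members (r = 0.83), Ash2l was like Dpy30 (0.81) and Kmt2c (0.72), and Kmt2b was like Setd1a (0.66). With a table left out, the value for Kmt2b and Setd1a ran from 0.36 to 0.83, and the 3 pairs before it kept values from 0.68 to 0.87. Kmt2a and Setd1b were least alike (-0.47). Over 13255 genes, the 5 with the highest r to Wdr5 were Clns1a (0.96), Parp1 (0.96), Trim28 (0.95), Nup133 (0.95) and BC018507 (0.94), where the median gene had 0.03 and the 99th percentile was at 0.87.

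The wider WDR5 and COMPASS neighbourhood was described with 35 genes: COMPASS accessory subunits, H3K4 demethylases, the NSL and ATAC acetyltransferase complexes, PRC1.6 and a WDR5 paralog. In the knockout 2 of the 35 were higher, 18 lower and 15 not called, where 22.8% of all genes were higher and 22.7% lower. The Rybp knockdown gave 4 higher, 16 lower and 15 not called, against 26.8% and 26.0%. Knockdown of WDR5 gave 14 higher, 9 lower and 12 not called, against 31.5% in each direction. In either direction together, the number called in both knockdowns is close to the background (52.7% and 63.0%). The median log2 fold change of the 35 was -0.09 in the knockout, -0.13 in the Rybp knockdown and 0.05 in the WDR5 knockdown.

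E2f6, the DNA-binding repressor of PRC1.6, rose in the knockout from 23.1 and 24.9 CPM to 37.0 and 37.8 CPM (log2 fold change 0.64, edgeR adjusted p = 1.1e-10). It rose in the Rybp knockdown from 39.5 and 38.4 CPM to 63.2 and 66.1 CPM (0.73, edgeR adjusted p = 1.6e-08). Groups were far apart in both. Mga (-0.43) and Pcgf6 (-0.34), also of PRC1.6, and Kat14 (-0.37), the ATAC acetyltransferase, fell most in the knockout, where Men1 (0.22), a partner of KMT2A and KMT2B, rose. In the Rybp knockdown Kansl1 (0.30) and Hcfc1 (0.21) rose, and Tada3 (-0.78), Psip1 (-0.55) and Bod1 (-0.52) fell, each given as a log2 fold change that passed the test.

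In the WDR5 knockdown Men1 fell from 141 and 148 CPM to 91.6 and 92.1 CPM (log2 fold change -0.66, edgeR adjusted p = 1.7e-10), while its partner Kmt2a rose as described above. L3mbtl2 (-0.46) and Psip1 (-0.41) also fell. The ATAC subunit Yeats2 rose from 75.1 and 75.5 CPM to 136 and 139 CPM (log2 fold change 0.87, edgeR adjusted p = 1.4e-12), and the NSL subunits Kansl1 (0.77) and Kat8 (0.66) rose as well. No Men1 or Yeats2 library overlapped the other group.

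The remaining tables showed fewer calls. In the libraries labelled DOX of the rTRS line 1 of the 35 was higher (Yeats2, 0.51) and 11 were lower, led by the demethylase Kdm5b, which fell from 888 and 951 CPM to 558 and 579 CPM (log2 fold change -0.69, edgeR adjusted p = 6.6e-07), with Hcfc2 (-0.50) and Kdm1b (-0.47). These 12 called genes are a smaller share of the list than the 43.4% called among all genes. RYBP induction changed none of the 35 by edgeR's quasi-likelihood test, and 6 had an unadjusted p under 0.05. The TF-AA mutation gave 1 higher, E2f6 (1.12), and 6 lower, led by L3mbtl2 (-0.39), Kdm1b (-0.33) and Wdr82 (-0.29), where 30.5% of all genes were called. Phase disruption gave 3 higher (E2f6, 0.41; Mbip, 0.39; Ncoa6, 0.24) and 13 lower, led by Kdm5b (-0.55), Mga (-0.39) and Kansl2 (-0.32), where 33.0% of all genes were called.

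Peaks at the promoters were taken within 2.5 kb of an annotated start of transcription. The lists come from merged replicates or a single library, so genotypes are set side by side with no test. All 10 members had an H3K4me3 promoter peak in both Rybp+/+ and Rybp-/- cells, where 67.8% and 67.9% of protein-coding genes had one, and all 10 had an H3K27ac peak in both (51.6% and 54.8%). WDR5 itself had a promoter peak at all 10 members in Rybp+/+ cells and at 9 in Rybp-/- cells, against 46.8% and 49.2% of protein-coding genes. Among the 15042 protein-coding genes that passed the expression filter of the knockout table, to which the members belong, the shares were higher: 90.9% and 91.1% for H3K4me3, 73.5% and 77.5% for H3K27ac, and 66.5% and 69.7% for WDR5. The H3K4me3 count is thus close to that of expressed genes. With a −log10 q of at least 5, WDR5 peaks remained at 10 members in Rybp+/+ and 8 in Rybp-/-, where the Setd1b peak had a −log10 q of 2.27, against 58.5% and 62.8% of expressed genes.

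**Figure D4:**
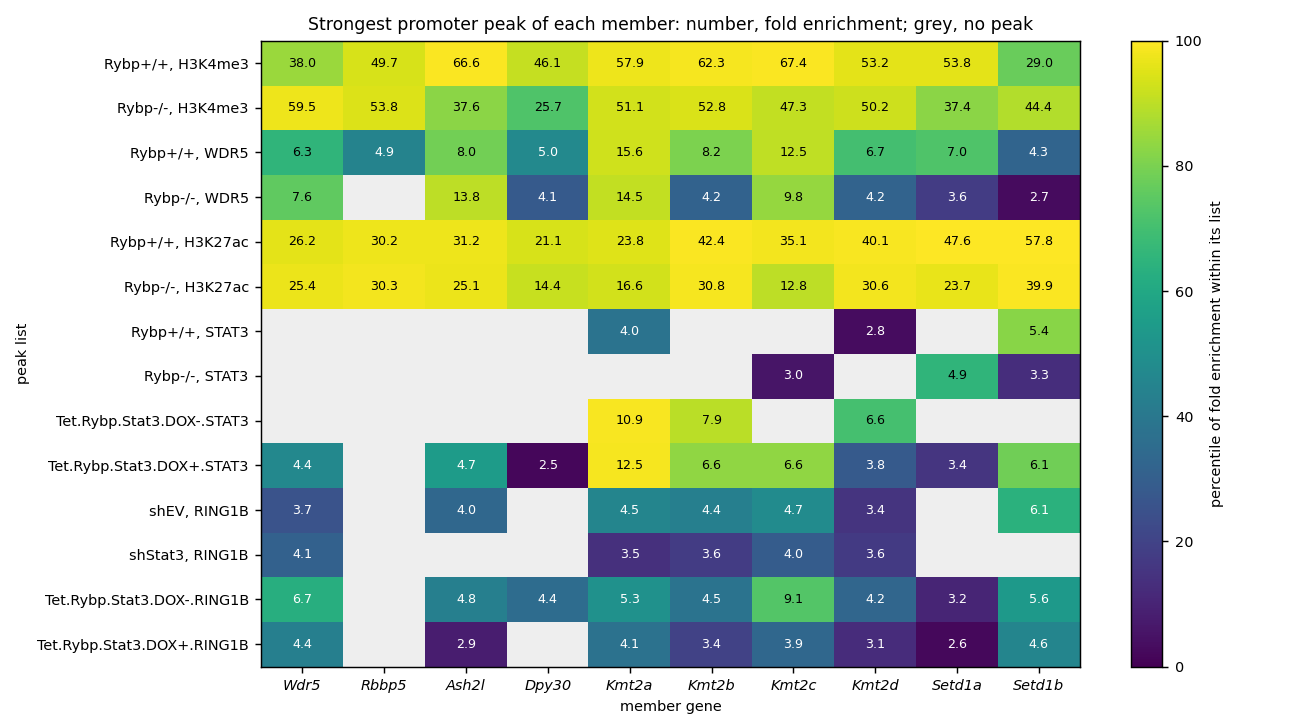
Fold enrichment (number) of the strongest promoter peak of each member in the 14 peak lists, coloured by its percentile of fold enrichment within its own list (0 to 100), with grey for no peak. WDR5 peaks were strongest at Kmt2a (15.6 and 14.5) and weakest at Setd1b (4.3 and 2.7).

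Kmt2a had the strongest WDR5 promoter peak of the set in both genotypes. In Rybp+/+ cells it spanned 2506 bp (chr9:44688502-44691007, fold enrichment 15.6), wider than 99.8% of the WDR5 peaks of its list. The Rybp-/- peak spanned 2611 bp with a fold enrichment of 14.5. The Kmt2a sequence printed above surrounds its Rybp+/+ summit, at position -185 relative to the start, and holds 2 GC boxes.

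At Wdr5 the WDR5 peak covered the 150 bases printed above in both genotypes, with a fold enrichment of 6.26 in Rybp+/+ (chr2:27370223-27371190) and 7.55 in Rybp-/- (chr2:27370435-27371220). Ash2l had 2 WDR5 promoter peaks in each list, which went in opposite directions. The one at its upstream start had 7.95 in Rybp+/+ and 13.8 in Rybp-/-, and the one at its downstream starts had 4.72 and 3.51. Lower values in the Rybp-/- list were found for Kmt2c (12.5 and 9.83), Kmt2b (8.21 and 4.19), Setd1a (6.97 and 3.61), Kmt2d (6.73 and 4.21), Dpy30 (5.01 and 4.06) and Setd1b (4.33 and 2.71). Rbbp5 had a WDR5 peak of 4.90 in Rybp+/+ (chr1:134373556-134374238) and none in the Rybp-/- list. Read depth behind these lists is unknown, and the lists differ in length, with 11965 peaks in Rybp+/+ and 12946 in Rybp-/-.

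The H3K4me3 peak over the Setd1b promoter was 11080 bp wide in Rybp+/+ (chr5:123584168-123595247) and 11096 bp in Rybp-/- (chr5:123584172-123595267), wider than 99.9% of the peaks of the Rybp+/+ list. Its H3K27ac peak was 10238 bp wide in Rybp+/+ and had a fold enrichment of 57.8, the highest of the members, with 39.9 in Rybp-/-. The start of AI480526 on the opposite strand lies 527 bp from that of Setd1b. Ash2l had a single H3K4me3 peak of 8346 bp in Rybp+/+, reaching over both its start regions. In Rybp-/- it had 3 peaks there, the widest 3212 bp, which together covered nearly as much, at 8233 bp.

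STAT3 peaks were found at few member promoters in the R7.15 line. Rybp+/+ cells had one at Kmt2a (fold enrichment 4.01), Kmt2d (2.82) and Setd1b (5.43), where 7.78% of protein-coding genes and 10.6% of expressed ones had a STAT3 promoter peak. Rybp-/- cells had one at Kmt2c (2.95), Setd1a (4.88) and Setd1b (3.29), where 6.56% and 9.07% did. Setd1b was thus the member with a STAT3 peak in both lists, but its Rybp-/- peak had a −log10 q of only 1.997. With only peaks of a −log10 q of at least 5, the numbers were 2 in Rybp+/+ and 1 in Rybp-/- (Setd1a). Among expressed genes the shares were 4.19% and 3.91%.

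In Tet.Rybp.Stat3 cells, 3 members had a STAT3 promoter peak without DOX, namely Kmt2a (10.9), Kmt2b (7.89) and Kmt2d (6.57), against 9.03% of protein-coding genes and 12.7% of expressed ones. With DOX 9 members had one, all but Rbbp5, against 57.5% and 76.9%. The lists held 2816 and 30663 peaks, so the larger number of members came with a longer list. Kmt2a had the highest enrichment of the members in both, with 12.5 with DOX, at the 98.7th percentile of that list. At Kmt2d the peak with DOX (chr15:98701573-98702941) was 1369 bp wide and covered the STAT motif printed above (chr15:98701685-98701693). Its summit (chr15:98702208) lay upstream of the motif, at position -594 relative to the start. Its fold enrichment of 3.79 was at the 28.4th percentile of that list. The peak without DOX (chr15:98701705-98702120) and the R7.15 Rybp+/+ peak (chr15:98701826-98702163) lay wholly upstream of the motif. Windows around the STAT3 summits at member promoters, of the size printed for Kmt2a, held no TTCNNNGAA. Binding of STAT3 to the motif was not tested.

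RING1B, the PRC1 ubiquitin ligase, had promoter peaks at 7 members in shEV cells and at 5 in shStat3 cells, against 45.9% and 41.6% of protein-coding genes and 61.3% and 55.2% of expressed ones. In Tet.Rybp.Stat3 cells 9 members had one without DOX and 8 with DOX, against 54.7% and 41.9% of protein-coding genes and 73.5% and 55.2% of expressed ones. The highest fold enrichments were at Kmt2c without DOX (9.11), Wdr5 without DOX (6.74) and Setd1b in shEV (6.11). That Setd1b peak lay inside the gene, 1237 bp from an internal annotated start, and the shEV peak over the first Setd1b start had 4.25. Rbbp5 had none in any of the 4 lists. Wdr5, Kmt2a, Kmt2b, Kmt2c and Kmt2d had one in all 4. Many of these peaks were weak, and with a −log10 q of at least 5 the numbers were 5 in shEV, 0 in shStat3, 8 without DOX and 4 with DOX, against 37.5%, 37.3%, 58.2% and 40.2% of expressed genes.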

How the data were processed

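Gene counts were deposited by the authors as 7 tables from HTSeq after Trim Galore and STAR alignment to mm9, per the submitters' processing notes; the strand setting is not given in the sources used here. Rows that name no gene held 13.9% to 58.0% of counts in the 6 tables that have them and were left out. All columns of per-sample values were mapped to samples, one of them (the second DOX library of the rTRS table, named S5) by treatment and replicate number alone. Each table was fitted alone with edgeR 4.0.16 (R 4.3.3; TMM factors, filterByExpr, quasi-likelihood test, two-sided, Benjamini-Hochberg over all genes tested, threshold 0.05) on the deposited counts, and checked on simulated data. CPM used TMM library sizes; RPKM used annotated exon bases. Alternatives were DESeq2 1.42.0, relative log expression factors, the exact test, no filter, a replicate block and each library left out. Nothing says that the 2 libraries of a group are separate cultures, so p-values measure only the spread between these libraries. Replicates were not identical, and a chi-square comparison gave 2.10 to 12.9 per gene.

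The 14 peak lists hold the fold enrichment (a ratio) and −log10 q value that the authors obtained with MACS2. The lowest −log10 q in a list was 1.01 to 1.38, so q values above the FDR of 0.01 stated in the methods occur. A promoter peak overlaps 2.5 kb either side of an annotated start by at least 1 bp (GENCODE vM1, the same build). Promoter windows were from RefSeq (GRCm38.p6).

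The members and lists were chosen with earlier results of these data known. Named were all members, the targeted genes, up to 3 pathway genes per direction and comparison with the largest change among those called at a mean of at least 1 CPM, and the 5 genes most like Wdr5.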

Additional observations from a re-analysis of the deposited data

Results flagged for a closer look

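In 4 members the 2 forms of RYBP deficiency moved in opposite directions, with no overlap between control and treated libraries in either, where 21.4% of the 15747 genes tested in both tables did the same. Setd1b had a log2 fold change of 0.54 in the knockout and -1.001 in the knockdown. For Rbbp5 the values were 0.10 and -0.20, for Setd1a 0.036 and -0.23, and for Kmt2a -0.13 and 0.12. The differences themselves were not tested, because the knockout was made in R7.15 cells and the knockdown in R1 cells and their tables were prepared separately. Setd1a did not pass the test in the knockout, nor Kmt2a in the knockdown. Line, method and batch cannot be told apart here.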

How the results depend on the processing

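Of 630 alternative values for the members, 577 kept their direction and their side of the threshold, 20 fell short of it, 9 passed it newly and 24 changed sign, all 24 for values that had not been called. Leaving out each library moved the number of members called from 8 to between 4 and 8 in the knockout, from 2 to between 1 and 2 with induced RYBP, and from 3 to between 2 and 5 with the TF-AA mutation. The calls over all genes ran from 406 to 1566 (899 with all libraries) for induced RYBP and from 2724 to 4767 (4412) for the TF-AA mutation. In phase disruption DESeq2 called 2980 genes, against 4814. The log2 fold changes that changed sign when a library was left out ranged as follows. In the knockout Ash2l ran from -0.041 to 0.023, and in the Rybp knockdown Kmt2d from -0.056 to 0.041. In the WDR5 knockdown Rbbp5 ran from -0.022 to 0.028, Dpy30 from -0.044 to 0.10 and Kmt2b from -0.064 to 0.021. In the rTRS line Kmt2d ran from -0.059 to 0.094 and Setd1a from -0.11 to 0.15. With induced RYBP Wdr5 ran from -0.034 to 0.011, Kmt2a from -0.097 to 0.084, Kmt2b from -0.067 to 0.034 and Setd1a from -0.11 to 0.071. In phase disruption Kmt2d ran from -0.025 to 0.014, and was -0.0021 with relative log expression factors, -0.0021 with DESeq2 and -0.0075 without the filter. With peaks of a −log10 q of at least 5 alone, members with a promoter peak fell from 3 to 1 for STAT3 in Rybp-/-, from 5 to 0 for RING1B in shStat3 and from 8 to 4 for RING1B with DOX. The correlation of Wdr5 and Clns1a ran from 0.93, without the Rybp knockdown table, to 0.97. Same-numbered libraries did not deviate together (r between -0.02 and 0.07), so the numbers do not pair them. With the replicate number as a block, 8 members were called in the knockout, 9 in the Rybp knockdown, 7 in the WDR5 knockdown, 8 in the rTRS line, 2 with induced RYBP, 4 with the TF-AA mutation and 6 in phase disruption, and no member's call was lost. The cause of these shifts was not tested. The members' standard errors were lowest in the knockout, the deepest table (0.030 to 0.062), but did not follow depth in the others: they ran from 0.055 to 0.11 in the rTRS line and from 0.074 to 0.092 with the TF-AA mutation, against 0.043 to 0.078 in phase disruption, the table with the fewest counts.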
